A study of Homo sapiens with 15 samples.

Results

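The response of Caco-2 cells to 5 mM butyrate was read from 2 of the 15 arrays of the series, the array of cells given 5 mM butyrate and the array of cells left in medium only. Where a gene had several probe sets, the one of highest average signal across the 15 arrays stood for it. Of 19775 genes, the 8057 that reached log2 6 on the brighter of both arrays were compared. A gene was called higher or lower with butyrate from a log2 difference of 1, which is a 2-fold difference. By this rule 2511 genes were called, 1258 of them higher and 1253 lower. Each is 15.6% of the genes compared, the share to set beside the count of each gene list below. With 1 array a side and no repeat, no test of this difference was possible, and the direction of the called genes was therefore read again in fermentation fluid arrays that the rule did not use.

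Caco-2 is a cell line established from a human colorectal tumour that keeps epithelial features, and the cells were non-differentiated, cultured with 5% fetal bovine serum and then treated for 24 h in serum-free DMEM. The medium, the 100 mM NaCl and the 5 mM butyrate treatment had 1 array each. The other 12 arrays were of cells given 10% by volume of cell-free fluid from a 48 h colon simulation with 0%, 1% or 2% polydextrose, a poorly digested glucose polymer that colonic bacteria ferment. The 4 vessels of the simulator stand for the ascending, transverse and descending colon and the sigmoid colon with the rectum, and the 0% and 2% fluids of vessels 2 to 4 (3 arrays each) served for the second reading. A single simulation supplied all 3 fluids of a concentration, so the p-values measure only the spread between these arrays, and simulation and concentration cannot be told apart.

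Butyrate is made by colonic bacteria when they ferment fibre, and is one of the short-chain fatty acids. Healthy colonocytes burn it as their main fuel, while in colon carcinoma cells it builds up and inhibits histone deacetylases, the enzymes that remove acetyl groups from histone tails and thereby close chromatin. Such inhibition is known to turn on the cyclin-dependent kinase inhibitor CDKN1A, to stop cells from dividing and to switch on parts of a differentiated cell's program.

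The labelled cell type was checked against its markers. Of 9 intestinal epithelial markers measured, EPCAM, CDH1, CDH17, KRT8 and KRT18 had log2 values of 7.48 to 14.04 over the 15 arrays. The other 4 (VIL1, CDX2, LGALS4 and FABP1, also genes of the gut epithelium) stayed at 1.63 to 4.95 and were thus near or at background throughout. Markers of leukocytes (5 genes, 1.53 to 3.56) and of endothelium (4 genes, 1.56 to 3.70) were near background too. Of 7 fibroblast markers, 6 lay between 1.33 and 2.74 on all arrays, and only the collagen chain COL1A1 was above this, at 1.37 in medium, 3.29 with NaCl and 8.13 with butyrate. Its difference of 6.75 from medium was 1.68 when its 5 probe sets were averaged. Genes that reached log2 5 made up 42.27% of all genes in medium and 43.18% with butyrate. For ACTB, whose 3′ control probe set exceeds its 5′ one by more as RNA degrades, this excess was largest on the medium array (0.951). It ranged from 0.366 to 0.924 on the other 14, butyrate included. For GAPDH the same value was alike on both arrays (-0.112 in medium, -0.122 with butyrate). The part of RNA quality in the differences below was not tested.

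Values under log2 5 were treated as close to background, so a butyrate difference with one array under 5 is given as a bound against 5 where it is the result described. Fluid changes are given as fitted, also where one concentration lay under 5. A bound applied to 300 of the higher and 173 of the lower genes. A gene at 6 on one array and under 5 on the other is always called, so the rule fixed the call of these 473 genes. Differences of 2 or more were found for 426 higher and 330 lower genes, and of 3 or more for 178 and 92. Near the threshold, GINM1 (9.21 in medium, 10.22 with butyrate) was just inside and POLR2J4 (6.07 and 7.07) just outside on the higher side. On the lower side LYRM4 (7.79 in medium, 6.79 with butyrate) was just inside and CUEDC2 (9.38 and 8.38) just outside. Within 0.1 of the threshold lay 149 called and 149 uncalled genes on the higher side and 173 called and 164 uncalled genes on the lower side. The median of all 19775 genes was 0.221 higher on the butyrate array, while that of the genes compared differed by 0.004. When each array was centred on its median, 954 genes were higher and 1681 lower.

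**Figure D1:**
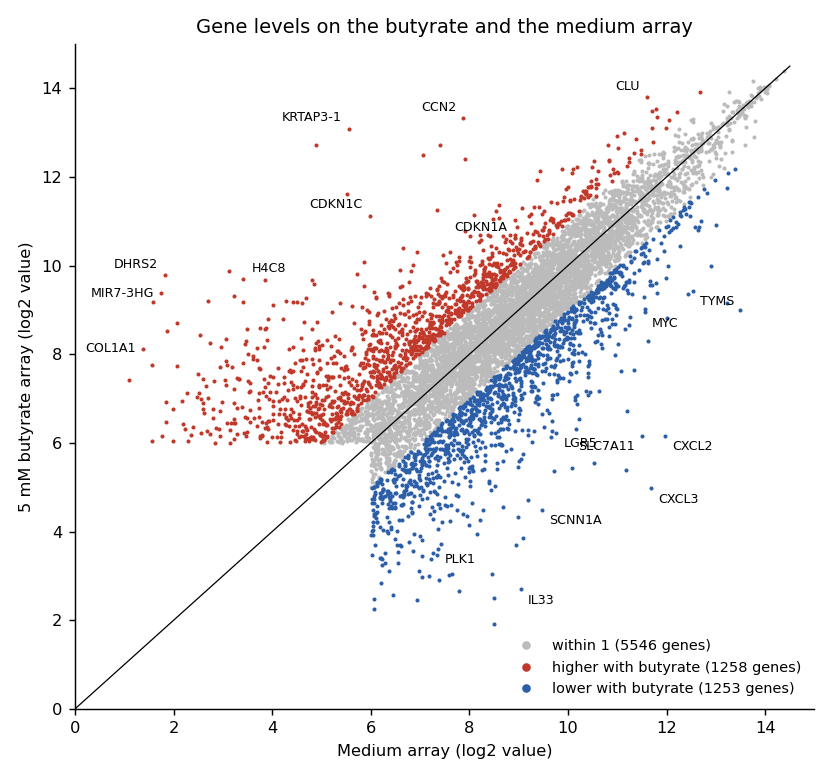
Each point is 1 of the 8057 genes compared, with its log2 value on the medium array (horizontal) and on the butyrate array (vertical); red points are the 1258 genes called higher, blue points the 1253 called lower and grey points the rest, and the line marks equal levels. DHRS2 and H4C8 lie at the upper left, low in medium and near 9.7 with butyrate, and CXCL3 and IL33 lie at the lower right.

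The spread between arrays can be judged only from other pairs. Between arrays of the same concentration in vessels 2 to 4, 0.065% to 0.735% of genes differed by 1 or more, while between medium and butyrate 31.2% did. The 2 control arrays, however, also differed: 703 genes were higher and 604 lower with NaCl than in medium, 16.6% of those compared. Set against the NaCl array, 819 of the higher and 797 of the lower genes again differed by 1 or more in the same direction. A further 427 and 447 were within 1 of it, and 12 and 9 differed by 1 or more in the opposite direction. Because the controls differed, the values of both are given below for many genes. The other genes are set against medium alone, and their NaCl value may differ from it.

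A second reading came from the fluids. In a linear model over the 9 arrays of vessels 2 to 4, 8719 genes were tested, of which 16.8% rose and 19.9% fell with 2% against 0% polydextrose (limma, Benjamini-Hochberg adjusted p under 0.05). Of the 1258 genes higher with butyrate, 762 rose (60.57%), 11 fell, 468 did not pass and 17 were not tested for low signal. Of the 1253 genes lower with butyrate, 878 fell (70.07%), 3 rose, 321 did not pass and 51 were not tested. The median change in the fluids was 0.39 for the higher and -0.50 for the lower genes, against -0.02 for all genes tested. All 3 arrays of 2% lay above all 3 of 0% for 874 of the higher genes (69.48%, against 24.0% of the genes tested), and all 3 lay below for 989 of the lower ones (78.93%, against 27.5%). Only 2 of the higher and 16 of the lower genes had entered the test through 1 concentration alone. Across the 8057 genes the butyrate difference and the fluid change had a Pearson correlation of 0.802 and a Spearman correlation of 0.776, with no array in common. Genes are not independent replicates, and all arrays were normalized together, so these are descriptions.

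**Figure D2:**
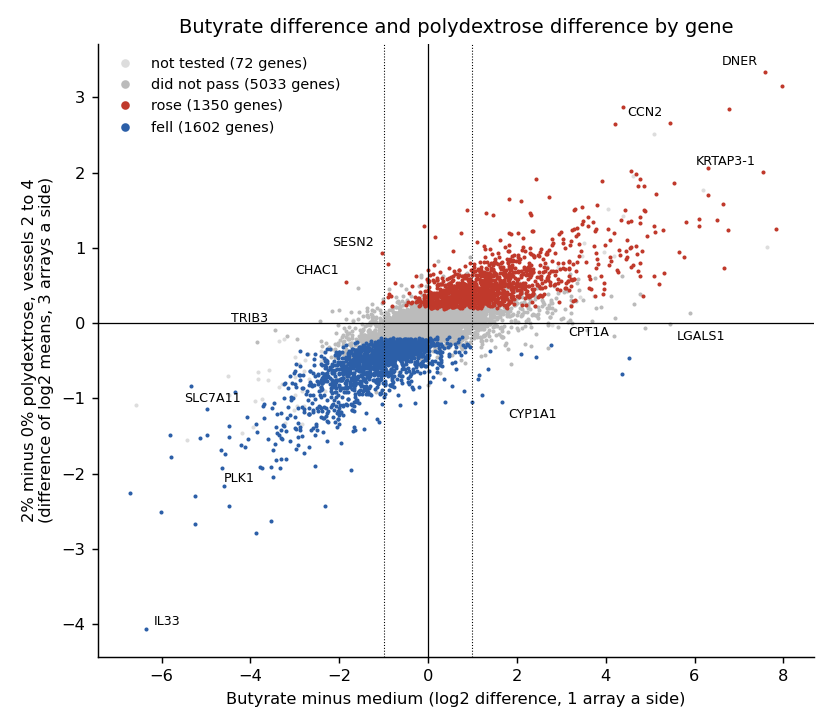
Each point is 1 of the 8057 genes, with its log2 difference between the butyrate and the medium array (horizontal) and its difference of log2 means between 2% and 0% polydextrose in vessels 2 to 4 (vertical); red genes rose and blue genes fell in the fluids, grey ones did not pass, light ones were not tested, and dotted lines mark a butyrate difference of -1 and 1. DNER and IL33 lie at opposite ends of both axes, LGALS1 and CPT1A lie near 0 on the vertical axis, and CHAC1 and CYP1A1 lie in the quadrants of opposite sign.

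Growth arrest genes differed in both directions. CDKN1A, which blocks the cyclin-dependent kinases of G1 and S phase, read 8.92 in medium, 7.79 with NaCl and 10.62 with butyrate, a 3.25-fold difference from medium. In the fluids it read 10.37, 10.35 and 10.30 with 0% and 10.80, 11.03 and 10.84 with 2%, so the groups did not overlap, and it rose by 0.55 ± 0.093 (SE; adjusted p = 0.00437). Both fluids thus held CDKN1A well above the controls, and the 2% arrays lay above the butyrate array. Its promoter is shown because GC boxes, the GGGCGG sites to which SP1 binds, are the elements through which deacetylase inhibitors are known to act on it. In RefSeq's sequence (GRCh38.p14, chr6:36678464-36678763, plus strand, 250 bases before to 50 after the start) 4 matches stand in capitals, beginning 104, 94, 45 and 40 bases before the start.

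CDKN1A: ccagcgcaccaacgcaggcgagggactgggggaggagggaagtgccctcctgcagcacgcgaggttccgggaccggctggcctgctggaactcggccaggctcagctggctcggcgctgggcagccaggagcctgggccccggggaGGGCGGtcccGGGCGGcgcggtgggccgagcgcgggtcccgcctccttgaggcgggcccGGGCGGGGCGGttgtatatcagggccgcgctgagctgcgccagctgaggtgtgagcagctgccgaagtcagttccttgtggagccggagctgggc

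GGGCGG on either strand was present in 76.9% of the 1059 promoters of higher genes, 66.5% of the 1062 of lower genes and 72.8% of the 6800 of all genes compared, against 44.6% of all 27305 RefSeq promoters. CDKN1C, the inhibitor p57, differed more than CDKN1A, with 5.98 in medium, 9.45 with NaCl and 11.13 with butyrate. Its fluid values were 9.19, 9.18 and 9.08 with 0% and 10.73, 11.01 and 10.87 with 2%, a rise of 1.72 ± 0.088 (SE; adjusted p = 9.41e-05). The difference from the NaCl array was much smaller than that from medium. Of the 13 genes of the list of kinase inhibitors, D and E cyclins and growth arrest genes, 6 were higher and 3 lower with butyrate (median difference 0.84), and in the fluids 5 rose and 1 fell. GADD45B, a stress-induced arrest gene, went from 8.42 to 10.68 and rose in the fluids by 0.74 ± 0.072 (SE; adjusted p = 0.000597). CDKN1B, the inhibitor p27, was lower (10.88 in medium, 9.38 with butyrate) and fell in the fluids by 0.69 ± 0.080 (SE; adjusted p = 0.00102). The cyclins differed among themselves: CCND2 was higher by at least 1.04 (under 5 in medium), CCNE2 was lower (9.22 in medium, 7.68 with butyrate) but was at 7.54 with NaCl, and CCND1, a D cyclin and Wnt target, was within 1 of medium (-0.26).

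Genes of mitosis were lower with butyrate almost without exception. Of 26 compared, 25 were lower and 0 higher, with a median difference of -2.40, against 15.6% of all genes lower and a median of 0.00. In the fluids 25 fell and 1 was not tested. PLK1, the kinase that drives entry into mitosis, read 7.36 in medium, 7.02 with NaCl and 3.61 with butyrate. It read 5.20, 5.68 and 5.48 with 0% and 3.87, 3.52 and 3.22 with 2%, without overlap, and fell by 1.92 ± 0.21 (SE; adjusted p = 0.000853). With the butyrate array under 5, the difference from medium is -2.36 or lower. KIF23, a motor protein of the spindle midzone and of cell separation, read 9.04 in medium, 7.89 with NaCl and 5.63 with butyrate, and fell from 7.60, 7.72 and 7.93 to 6.23, 6.59 and 6.79 in the fluids, by 1.21 ± 0.12 (SE; adjusted p = 0.00062). The kinases AURKA (-3.20) and AURKB (-3.25), the spindle motor KIF2C (-3.32), and the mitotic cyclins CCNA2 (-3.30) and CCNB1 (-2.78) were lower to a like extent. TOP2A, which untangles sister chromatids (-1.22), and the checkpoint kinase BUB1 (-1.38) were lower by less. In bulk RNA, fewer dividing cells and less RNA per cell cannot be told apart.

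Mitotic genes are known to share CCAAT boxes, bound by NF-Y, and the cell cycle element CHR (TTTGAA), bound by the DREAM complex, which silences them in arrested cells. The promoters of PLK1 (chr16:23678639-23678938, plus strand) and KIF23 (chr15:69414099-69414398, plus strand), of the same window and build, are shown with CCAAT and TTTGAA on either strand in capitals. In PLK1 they start 73 and 29 bases before the start of the gene, and in KIF23, where the CCAAT lies on the minus strand, 64 and 55 bases before it.

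PLK1: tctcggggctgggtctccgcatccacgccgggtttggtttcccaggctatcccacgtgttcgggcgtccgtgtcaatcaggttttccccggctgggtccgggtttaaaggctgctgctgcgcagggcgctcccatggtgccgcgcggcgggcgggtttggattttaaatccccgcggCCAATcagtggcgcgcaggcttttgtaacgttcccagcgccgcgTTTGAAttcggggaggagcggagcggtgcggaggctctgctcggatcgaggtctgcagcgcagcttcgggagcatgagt
KIF23: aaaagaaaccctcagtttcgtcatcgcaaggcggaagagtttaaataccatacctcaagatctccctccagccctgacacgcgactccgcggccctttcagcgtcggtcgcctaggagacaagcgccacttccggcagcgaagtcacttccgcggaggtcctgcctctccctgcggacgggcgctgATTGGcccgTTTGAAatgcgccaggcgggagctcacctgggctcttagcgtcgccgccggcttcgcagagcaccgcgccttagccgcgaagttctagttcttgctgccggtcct

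TTTGAA was found in 13 of the 21 mitosis genes with a promoter sequence and CCAAT in 18, and 12 had both. Among the promoters of genes lower with butyrate TTTGAA was in 15.8%, among those of higher genes in 7.7% and among those of all genes compared in 9.9%. CCAAT was in 38.2%, 42.0% and 38.6%. TTTGAA was held by 15.4% and CCAAT by 35.7% of all 27305 RefSeq promoters. These matches describe the letters of the window and show no binding.

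DNA replication genes were lower as well. Of 27 compared 20 were lower with butyrate, against 15.6% of all genes, and 0 higher (median -1.55, but -0.50 with NaCl as the control), and in the fluids 14 fell, 0 rose, 11 did not pass and 2 were not tested. TYMS, the thymidylate synthase, read 12.53 in medium, 11.91 with NaCl and 9.43 with butyrate, and fell from 10.53, 10.66 and 10.64 with 0% to 9.62, 9.40 and 9.74 with 2%, by 1.02 ± 0.089 (SE; adjusted p = 0.000414). MCM5, a subunit of the replicative helicase, had one of the largest differences of the list with butyrate, from 9.62 to 6.67. In the fluids it read 6.66, 6.75 and 6.19 with 0% and 6.07, 6.39 and 6.50 with 2%, groups that overlapped, with a change of -0.22 ± 0.18 (SE; adjusted p = 0.37). All fluid values of MCM5 were thus already near the butyrate value. The helicase subunits MCM2 (-2.21) and MCM3 (-2.05) were lower and fell in the fluids, by 0.60 and 0.60. PCNA, the sliding clamp, was lower by just over the threshold (-1.05), and RRM2, which makes deoxynucleotides, stood at 12.87 in medium and 12.98 with butyrate.

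All 10 genes of homologous recombination and Fanconi repair that were compared were lower (median -1.79, against -0.45 with NaCl as the control), and in the fluids 6 fell, 3 did not pass and 1 was not tested. RAD51AP1, a partner of the recombinase, went from 10.23 to 8.20 and fell in the fluids by 0.53 ± 0.10 (SE; adjusted p = 0.00798). BARD1, the partner of BRCA1, went from 8.25 to 6.44, but NaCl held it at 6.03, below the butyrate value. EXO1, a nuclease that trims DNA ends, behaved likewise, with 8.89 in medium, 5.72 with NaCl and 7.12 with butyrate, and its fluid change was -0.21 ± 0.094 (SE; adjusted p = 0.117). For BARD1 and EXO1 the medium array was the highest of the 3 single treatments, and the direction against NaCl was the opposite one.

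Of 13 histone genes measured 8 were compared, and 7 of these were higher with butyrate (median 2.71, against 0.92 with NaCl as the control). Of the 8, 3 were under 5 in medium and entered through the butyrate array alone, so the rule fixed their direction. In the fluids 7 of the 8 rose and 1 fell. Affymetrix labelling is known to prime from the poly(A) tail, which most replication-dependent histone transcripts lack, so these values read the tailed transcripts. H4C8 read 3.40 in medium, 6.01 with NaCl and 9.70 with butyrate. It was thus at least 26-fold higher than in medium. It read 8.14, 7.37 and 8.20 with 0% and 9.97, 10.05 and 9.88 with 2%, without overlap, and rose by 2.06 ± 0.21 (SE; adjusted p = 0.000715). H2BC21 was higher by at least 4.67, H2BC4 by at least 2.87, and the linker histone H1-2 by 2.71, and all 3 rose in the fluids (by 1.35, 1.20 and 0.67).

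Of 8 deacetylases compared, 0 were lower (median 0.13, against 0.92 with NaCl as the control) and 2 were higher, HDAC3 (8.27 in medium, 8.52 with NaCl, 9.73 with butyrate), the catalytic subunit of the NCoR complex, and HDAC5, a class II enzyme that was under 5 in medium (at least 1.52). Both rose in the fluids, by 0.38 and 0.64, although for HDAC5 the adjusted p was 0.0526 to 0.0596 without any 1 of 3 arrays. HDAC1 (0.67) and HDAC2 (-0.46), the main nuclear enzymes, were within 1 of medium. Of all genes compared, 15.6% were higher and 15.6% lower. Of 12 genes known to rise with deacetylase inhibitors, in contrast, 10 were higher and 0 lower (median 1.79), and 8 rose and 0 fell in the fluids. This list was chosen with earlier results of these data known, so its direction is no independent evidence. DHRS2, a short-chain dehydrogenase known from butyrate-treated liver tumour cells, read 1.82 in medium, 1.75 with NaCl and 9.79 with butyrate. It was thus at least 27.7-fold higher than medium. With 0% fluid it read 4.60, 3.82 and 3.95, with 2% 7.31, 7.66 and 6.85, and it rose by 3.15 ± 0.19 (SE; adjusted p = 0.000159). CLU, the chaperone clusterin, already bright in medium at 11.61, reached 13.80 and rose in the fluids by 0.53. GSN, the actin-severing protein gelsolin, went from 7.46 to 10.24, with 9.13 in NaCl and 9.98 ± 0.20 and 10.12 ± 0.087 (SD, n = 3) in the 0% and 2% fluids, a difference that did not pass the test (adjusted p = 0.359).

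**Figure D3:**
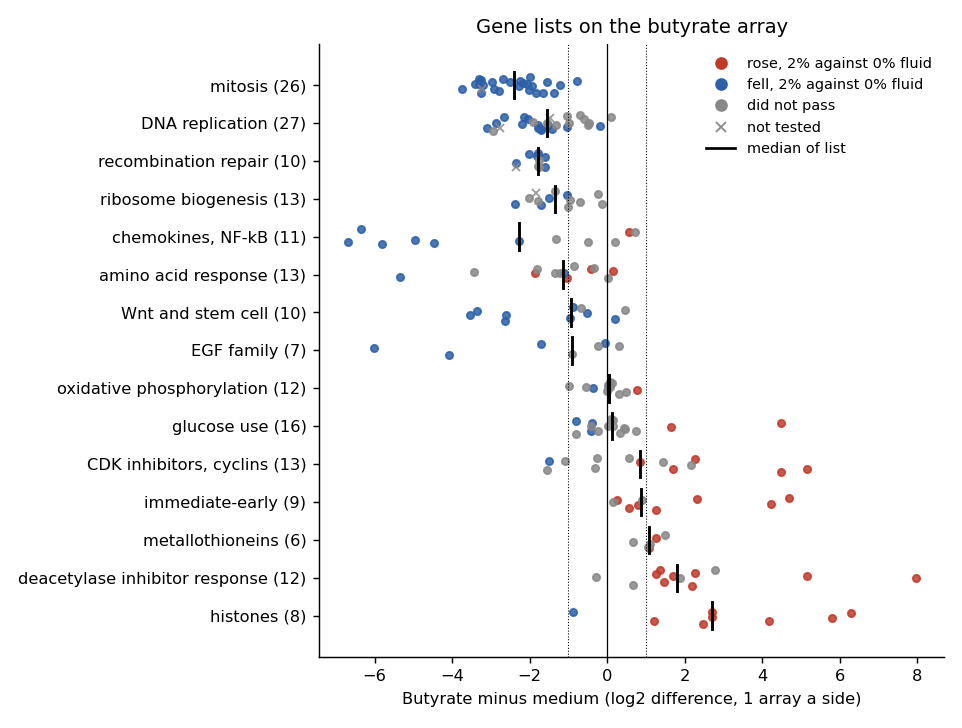
Each point is a gene of 1 of 15 lists, placed at its log2 difference between the butyrate and the medium array; the number of genes compared stands beside each list, black bars mark medians, dotted lines mark -1 and 1, and colours give the result in the fluids (red rose, blue fell, grey did not pass, cross not tested). All 26 mitosis genes lie below 0, the median of the histone list is 2.71, and the genes of oxidative phosphorylation lie within 1 of 0.

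Of 10 Wnt target and intestinal stem cell genes compared, 4 were lower and 0 higher, against 15.6% of all genes in each direction. MYC, the growth-promoting transcription factor downstream of Wnt signalling, read 11.56 in medium, 10.78 with NaCl and 8.94 with butyrate, and fell in the fluids from 10.88, 10.73 and 10.84 to 9.92, 9.92 and 10.10, by 0.84 ± 0.083 (SE; adjusted p = 0.00062). LGR5, the receptor that marks crypt stem cells, read 9.77, 9.22 and 6.23, and fell from 8.87, 8.58 and 8.45 to 7.02, 6.37 and 6.80, by 1.91 ± 0.11 (SE; adjusted p = 0.000142). In both genes the 3 arrays of 2% lay below all 3 of 0%, and the butyrate array lay below them all. ASCL2, the stem cell transcription factor (-3.35), and RNF43, which removes Wnt receptors from the surface (-2.64), were the other lower genes (median of the list -0.93), and 8 of the 10 fell in the fluids. AXIN2, a feedback inhibitor used as a readout of Wnt signalling, was within 1 of medium with butyrate (10.995 and 11.20) and fell in the fluids by 0.38 ± 0.099 (SE; adjusted p = 0.0211), a call that was lost without any 1 of 4 arrays (adjusted p = 0.0571 to 0.089). Ribosome biogenesis, which MYC is known to drive, had 9 of 13 genes lower and 0 higher (median -1.34, against -0.67 with NaCl as the control), but only 4 fell in the fluids and 8 did not pass. RRS1, an assembly factor of the large subunit, went from 10.03 to 8.26, and RRP12, which helps to export new subunits, from 7.03 to 5.002, with fluid changes of -0.40 ± 0.15 (SE; adjusted p = 0.0691) and -0.26 ± 0.12 (SE; adjusted p = 0.133).

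Genes of mature gut cells differed in part only. Of 22 brush border and enterocyte genes, 6 were bright enough to compare, of which 4 were higher and 0 lower, and in the fluids 3 rose and 1 fell. KRT20, a keratin of mature enterocytes, went from 10.48 in medium and 10.37 with NaCl to 12.23, and CA2, a carbonic anhydrase, from 8.59 and 8.79 to 9.97. CA2 rose in the fluids by 0.66 ± 0.077 (SE; adjusted p = 0.00102), while KRT20 was at 12.07 ± 0.13 with 0% and 12.25 ± 0.016 with 2% (SD, n = 3) and did not pass. The brush border hydrolases ALPI (1.92 in medium, 1.81 with butyrate) and SI (1.54 and 1.65) stayed at background. Of 3 goblet cell genes compared, only TFF1, a mucus peptide, was called, as lower (6.83 in medium, 5.44 with butyrate), and it fell in the fluids by 0.94 ± 0.17 (SE; adjusted p = 0.00503). CDH17, a cadherin of gut epithelium and 1 of the 5 markers measured, was lower too (-1.14) and fell by 0.84.

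Chemokines of the CXC family led the lower genes. Of 11 chemokine and NF-kB genes compared 7 were lower and 0 higher (median -2.27, against -1.46 with NaCl as the control and -1.48 with probe sets averaged), and in the fluids 6 fell and 1 rose. CXCL1 read 10.52 in medium, 7.49 with NaCl and 5.56 with butyrate, and 9.21, 9.01 and 9.59 with 0% against 8.05, 8.03 and 8.33 with 2%, a fall of 1.13 ± 0.10 (SE; adjusted p = 0.000435). CXCL2 read 11.96, 7.62 and 6.16, and 10.55, 10.48 and 11.31 against 9.18, 9.23 and 9.50, a fall of 1.48 ± 0.13 (SE; adjusted p = 0.000402). CXCL3 read 11.68, 8.36 and 4.98, and 8.997, 8.69 and 9.62 against 6.94, 6.52 and 7.08, a fall of 2.26 ± 0.16 (SE; adjusted p = 0.000267). In each of these neutrophil attractants the butyrate array was the lowest, the 2% arrays lay below all 0% arrays, and NaCl stood well below medium. The 3 genes lie together on chromosome 4, and their promoters are shown because they hold the same 9 letters, GGAATTTCC, a form of the NF-kB site, at nearly the same place. The sequences are of GRCh38.p14, with CXCL1 at chr4:73869143-73869442 (plus strand), CXCL2 at chr4:74099146-74099445 and CXCL3 at chr4:74038640-74038939 (both minus strand), and the match, in capitals, begins 78, 77 and 78 bases before the start.

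CXCL1: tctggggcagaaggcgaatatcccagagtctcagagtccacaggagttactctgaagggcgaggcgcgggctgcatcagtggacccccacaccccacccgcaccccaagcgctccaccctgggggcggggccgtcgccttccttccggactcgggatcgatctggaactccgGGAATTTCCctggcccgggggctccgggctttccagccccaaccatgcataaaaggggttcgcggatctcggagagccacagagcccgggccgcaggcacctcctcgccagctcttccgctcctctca
CXCL2: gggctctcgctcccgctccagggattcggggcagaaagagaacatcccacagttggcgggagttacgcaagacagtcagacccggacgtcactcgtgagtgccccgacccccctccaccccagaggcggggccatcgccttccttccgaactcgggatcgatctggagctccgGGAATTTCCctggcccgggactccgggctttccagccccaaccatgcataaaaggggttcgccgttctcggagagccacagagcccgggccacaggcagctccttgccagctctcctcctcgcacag
CXCL3: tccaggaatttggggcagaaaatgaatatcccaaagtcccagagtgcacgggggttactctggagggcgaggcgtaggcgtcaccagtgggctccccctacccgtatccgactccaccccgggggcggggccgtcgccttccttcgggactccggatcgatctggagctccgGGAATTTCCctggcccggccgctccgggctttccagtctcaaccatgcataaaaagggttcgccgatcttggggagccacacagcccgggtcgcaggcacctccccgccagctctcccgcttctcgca

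CXCL5, whose match begins 90 bases before the start, was lower as well (13.48 in medium, 9.01 with butyrate) and fell in the fluids by 1.52. GGAATTTCC on either strand was in 7 of the 10 listed genes with a promoter, in 0.5% of the promoters of all genes compared and in 0.8% of those of the lower genes; this motif was chosen after the values were seen. CXCL8, which attracts neutrophils too, differed less (12.20 in medium, 8.80 with NaCl, 10.87 with butyrate) and had a fluid change of -0.008 ± 0.085 (SE; adjusted p = 0.948). CCL20, which attracts dendritic cells and lymphocytes, stood at 11.05 in medium and 11.60 with butyrate and rose in the fluids by 0.37 ± 0.090 (SE; adjusted p = 0.0177), a call that was lost without any 1 of 3 arrays (adjusted p = 0.0573 to 0.0659). IL33, an alarmin stored in the nucleus, went from 9.04 to 2.70, a difference of -4.04 or lower, and from 8.13, 8.44 and 7.77 to 4.28, 3.23 and 4.65 in the fluids, a fall of 4.06 ± 0.42 (SE; adjusted p = 0.000698). NFKBIA, the inhibitor of NF-kB and itself a target of it, was lower (10.07 in medium, 11.71 with NaCl, 7.81 with butyrate), whereas TNFAIP3, another feedback inhibitor, was within 1 of medium (0.71).

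Genes of the amino acid response are those that ATF4 turns on when amino acids run short. Of 13 compared 8 were lower with butyrate and 0 higher (median -1.13), and in the fluids 4 rose, 2 fell and 7 did not pass. With NaCl as the control the median was -0.25. SLC7A11, the cystine importer, read 11.50 in medium, 9.02 with NaCl and 6.17 with butyrate, and 11.06, 10.93 and 11.78 with 0% against 10.03, 10.53 and 10.72 with 2%, a fall of 0.83 ± 0.14 (SE; adjusted p = 0.00456). TRIB3, a pseudokinase, read 11.07, 10.40 and 7.63, and the fluids held it at 10.80, 10.72 and 11.28 and 10.65, 10.86 and 11.03, groups that overlapped (change -0.086 ± 0.11 (SE; adjusted p = 0.58)). In both genes the butyrate value lay far below every fluid array. CHAC1, which degrades glutathione, was lower with butyrate (8.19 in medium, 7.50 with NaCl, 6.34), yet rose in the fluids from 9.61, 9.45 and 9.84 to 10.18, 10.26 and 10.13, by 0.55 ± 0.11 (SE; adjusted p = 0.00795). SESN2, a sestrin of the same response, was lower by just over the threshold (7.53 in medium, 6.49 with butyrate, but 6.30 with NaCl) and rose in the fluids by 0.93 ± 0.17 (SE; adjusted p = 0.00622). ATF4 itself went from 12.39 to 11.17 and stood at 12.39 ± 0.18 and 12.39 ± 0.086 (SD, n = 3) in the 0% and 2% fluids. PSAT1 (-1.82) and PHGDH (-1.13), enzymes of serine synthesis, were lower with butyrate as well.

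Chaperones of the endoplasmic reticulum were mostly within 1 of medium (12 of 14, median -0.46, against -0.13 with NaCl as the control), although 10 fell in the fluids. The exceptions were XBP1, the transcription factor of the unfolded protein response (9.72 in medium, 9.29 with NaCl, 5.37 with butyrate), and DNAJB9 (-1.67), a cochaperone. XBP1 fell in the fluids by 0.91 ± 0.11 (SE; adjusted p = 0.00121). Of 8 heat shock genes 2 were lower, HSPH1 (-2.17) and the mitochondrial HSPE1 (-1.83), and 1 was higher, the cochaperone DNAJB1 (1.44). All 3 moved the same way in the fluids (falls of 0.65 and 0.61, a rise of 0.92).

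Genes of energy metabolism differed one by one rather than as groups. In fatty acid oxidation and ketone body synthesis, of 13 genes compared 4 were higher and 3 lower (median 0.60), against 15.6% of all genes in each direction. CPT1A, which admits long-chain fatty acids to mitochondria, read 5.97 in medium, 5.80 with NaCl and 8.95 with butyrate, and the fluids held it at 9.08, 8.86 and 8.93 with 0% and 8.93, 9.08 and 9.02 with 2%. The fluid groups overlapped, with a change of 0.052 ± 0.083 (SE; adjusted p = 0.656), and the butyrate value lay within their range. ETFDH, which passes electrons from fat oxidation to the respiratory chain, was higher (1.88) and rose by 0.83 ± 0.083 (SE; adjusted p = 0.000653), and BDH1, an enzyme of ketone bodies, was lower (-2.11) and fell by 1.15 ± 0.14 (SE; adjusted p = 0.00118). Of 12 genes of oxidative phosphorylation compared 0 were called (median 0.05), and of 16 genes of glucose use 2 were higher and 0 lower, against 15.6% of all genes in each direction, while in the fluids 2 rose, 3 fell and 11 did not pass. Among the higher ones was SLC2A3, the glucose transporter GLUT3, at 7.92 in medium, 8.37 with NaCl and 12.41 with butyrate, which rose in the fluids by 0.87 ± 0.091 (SE; adjusted p = 0.000715). Of 11 cholesterol genes INSIG1, which holds back sterol synthesis, was higher (1.90) and FDPS, an enzyme of that synthesis, lower (-1.30). SREBF1, the transcription factor of fat synthesis, was higher (6.79 in medium, 9.29 with butyrate) with a fluid change of 0.37 ± 0.33 (SE; adjusted p = 0.417).

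Immediate-early genes, which answer growth signals and stress within minutes, had 4 of 9 members higher and 0 lower (median 0.88, against 1.99 with NaCl as the control), and in the fluids 7 rose and 0 fell. EGR3 read 5.86 in medium, 5.45 with NaCl and 10.08 with butyrate, and 7.83, 7.57 and 7.96 with 0% against 10.02, 10.71 and 10.55 with 2%, a rise of 2.65 ± 0.17 (SE; adjusted p = 0.000164). FOS was higher by at least 4.18 (under 5 in medium), and DUSP1, a phosphatase that ends kinase signals, by 2.32, and both rose in the fluids, by 1.98 and 1.44. CCN2, a secreted matrix protein and target of YAP, read 7.88, 8.49 and 13.33, and rose from 10.50, 9.82 and 9.82 to 12.72, 12.87 and 12.50, by 2.65 ± 0.16 (SE; adjusted p = 0.000154). Its relative CCN1 was higher by 1.86 and rose by 1.19, while the other 4 of 6 YAP target and contractile genes were within 1 of medium.

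Of 7 ligands and receptors of the EGF family compared, 3 were lower and 0 higher, against 15.6% of all genes in each direction. All 3 were ligands. EREG read 13.24 in medium, 12.16 with NaCl and 9.16 with butyrate, and fell from 12.57, 12.80 and 12.84 to 11.40, 11.40 and 11.67, by 1.25 ± 0.088 (SE; adjusted p = 0.00025). BTC differed by -3.50 or lower and TGFA by -1.72, and both fell in the fluids, by 2.51 and 0.74. The other 4 genes of this family compared were within 1 of medium. In the Notch pathway HEY1, a target gene, was higher by at least 2.40 and rose by 2.02 ± 0.10 (SE; adjusted p = 9.41e-05), whereas the ligand JAG1 was lower (-1.07) and fell by 0.60 ± 0.063 (SE; adjusted p = 0.000745).

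PTGS2, the inducible cyclooxygenase, read 6.33 in medium, 6.18 with NaCl and 4.003 with butyrate. In the fluids it read 7.33, 7.30 and 8.03 with 0%, above both controls, and 5.29, 4.53 and 5.55 with 2%, a fall of 2.43 ± 0.24 (SE; adjusted p = 0.000608). PTGS1, the constitutive enzyme, went the other way between the single arrays, from 1.84 in medium to 6.92 with butyrate, but NaCl also held it at 6.37. Of the 9 prostaglandin genes compared 5 were higher and 2 lower (median 1.25), against 15.6% of all genes in each direction. For 4 of the 9 one array was under 5, so the rule fixed their call. Against NaCl the median of the list was -0.38. Of 5 interferon-stimulated genes 4 were higher and 1 lower. IFI6 read 7.34 in medium, 7.06 with NaCl and 11.25 with butyrate and rose in the fluids by 0.63 ± 0.10 (SE; adjusted p = 0.00376), and IRF7, a transcription factor of the interferon response, was higher (2.54) and rose by 0.99. OAS1, which senses viral RNA, was lower (-2.10) and fell by 1.31. Of 9 genes of antigen presentation 3 were lower and 0 higher, against 15.6% of all genes in each direction. Among the lower ones was PSMB8, a subunit of the immunoproteasome (8.99 in medium, 8.79 with NaCl, 4.33 with butyrate), which fell in the fluids by 1.68 ± 0.19 (SE; adjusted p = 0.00096).

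Apoptosis genes were split. Of 12 pro-apoptotic genes 2 were higher and 4 lower, and of 5 anti-apoptotic genes 3 were lower and 0 higher. Over all genes compared 15.6% were higher and 15.6% lower, and the 2 of 12 are near that share. BID, which links death receptors to mitochondria, went from 9.27 to 6.02, and CASP9, the initiator caspase, from 6.36 to 8.60. CFLAR, which blocks caspase 8 (-3.04), and BCL2L1, which protects mitochondria (-2.28), were lower. These 4 genes moved the same way in the fluids: BID fell by 0.99, CFLAR fell by 0.996 and BCL2L1 fell by 1.57, while CASP9 rose by 0.73.

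Among genes of defence against metals, oxidants and foreign compounds, 5 of 6 metallothioneins were higher (median 1.09). MT1F went from 11.37 in medium and 10.35 with NaCl to 12.87, and the difference between its fluid means of 12.26 ± 0.22 and 12.48 ± 0.088 (SD, n = 3) did not pass the test (adjusted p = 0.0587). Of 8 NRF2 genes 2 were higher, HMOX1, which breaks down haem (6.66 in medium, 6.77 with NaCl, 10.39 with butyrate), and SRXN1, which repairs peroxiredoxins (1.44). The share over all genes compared was 15.6%. HMOX1 rose in the fluids by 1.34 ± 0.12 (SE; adjusted p = 0.000459), but the NRF2 targets GCLM (-0.73) and TXNRD1 (-0.41) were within 1 of medium. ALDH3A1, an aldehyde dehydrogenase induced through the aryl hydrocarbon receptor, was lower (8.99 in medium, 7.76 with NaCl, 5.45 with butyrate) and fell in the fluids by 2.63 ± 0.14 (SE; adjusted p = 0.000112). CYP1A1, the classical target of that receptor, was under 5 in medium (4.95) and at 6.60 with butyrate, but NaCl held it at 7.51, above butyrate.

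In transport and adhesion, AQP3, a channel for water and glycerol, read 4.88 in medium, 10.52 with NaCl and 12.72 with butyrate. The fluids held it at 11.29, 11.25 and 10.80 with 0% and 12.35, 12.42 and 12.30 with 2%, a rise of 1.25 ± 0.10 (SE; adjusted p = 0.000376), so that medium was the only treatment with a value under 5. SCNN1A, the alpha subunit of the epithelial sodium channel, read 9.46, 9.73 and 4.50, a difference of -4.46 or lower from medium, and fell in the fluids by 1.49 ± 0.14 (SE; adjusted p = 0.000533). CLDN2, a claudin that lets cations pass, went from 8.46 in medium and 6.63 with NaCl to 3.04. The other tight junction genes were mostly within 1 of medium (9 of 12). Of 9 transporters and receptors for short-chain fatty acids listed, 2 were bright enough to compare; BSG, the chaperone of monocarboxylate transporters, was higher (1.19), and SLC5A8, the sodium-coupled importer, stayed at background (2.39 in medium, 2.06 with butyrate). Among 18 genes of nerve and neuroendocrine cells 6 were compared, of which 4 were higher and 1 lower, against 15.6% of all genes in each direction. For 3 of the 6, DNER included, one array was under 5, so the rule fixed their call. In the fluids 1 of the 6 rose, 1 fell and 4 did not pass. DNER, the one that rose and a surface protein of neurons, read 1.58, 2.11 and 9.17, at least 18.1-fold higher than medium, and rose from 4.94, 4.33 and 4.03 with 0% to 8.06, 7.84 and 7.42 with 2%, by 3.34 ± 0.13 (SE; adjusted p = 4.92e-05).

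By size alone, the 12 largest differences among genes at 5 or more on both arrays were, in the higher direction, led by KRTAP3-1, a hair keratin-associated protein, at 5.55 in medium, 6.87 with NaCl and 13.09 with butyrate. With 0% fluid it varied, at 9.57, 8.59 and 6.94, and with 2% it read 10.73, 10.46 and 9.93, a rise of 2.01 ± 0.33 (SE; adjusted p = 0.00396). It was followed by EPPK1, the cytolinker epiplakin (6.10), CCN2 (5.45), LGALS1, the lectin galectin-1 (5.44), TUBA1A, an alpha-tubulin (5.32), CDKN1C (5.14), SLC2A3 (4.49), EGR3 (4.22), the helicase-like HLTF (4.10), IFI6 (3.91), the membrane adaptor PAG1 (3.78) and the actin scaffold BAIAP2 (3.73). Of these 12 all but LGALS1 and PAG1 rose in the fluids. In the lower direction CXCL2 (-5.80) came first, then TMEM52B (-5.79), SLC7A11 (-5.34), CXCL1 (-4.97), the potassium channel subunit KCNE3 (-4.65), ACSL5, which activates long-chain fatty acids (-4.48), CXCL5 (-4.47), XBP1 (-4.35), EREG (-4.08), NSMAF (-3.86), the epithelial transcription factor EHF (-3.71) and MOCOS, which activates molybdenum enzymes (-3.68). All 12 fell in the fluids. Among bounded differences HMGA2, a chromatin protein of embryonic and tumour cells, went from 9.19 in medium to 4.70 and fell from 7.79, 7.89 and 7.62 with 0% to 5.33, 5.26 and 5.42 with 2%, by 2.43 ± 0.089 (SE; adjusted p = 4.92e-05). IL20RA, a cytokine receptor, went from 9.10 to 3.85, and SERPINH1, the collagen chaperone, from 8.94 to 3.70, and both fell in the fluids, by 2.66 and 2.29.

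**Figure D4:**
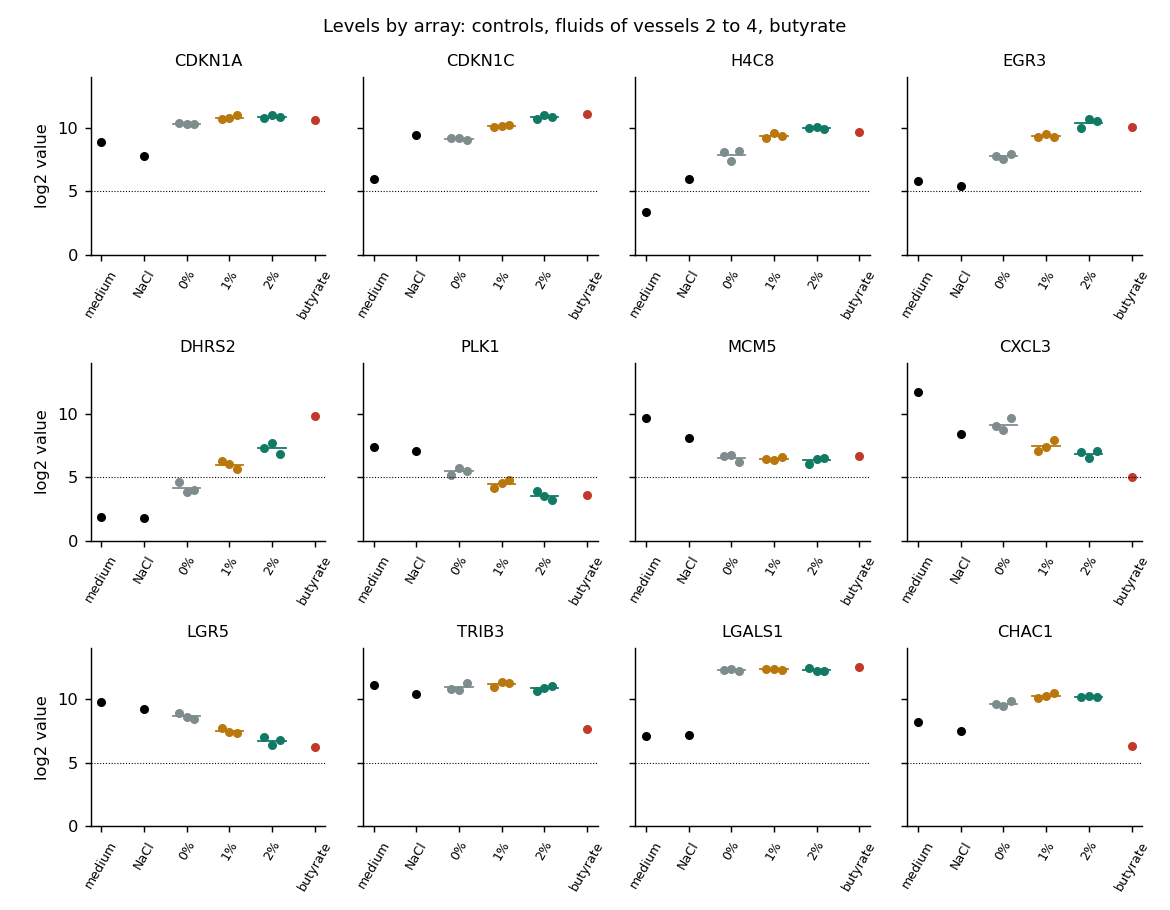
Log2 values of 12 genes on the single arrays of medium, NaCl (black) and butyrate (red) and on the 3 arrays each of 0%, 1% and 2% polydextrose in vessels 2 to 4 (points in vessel order, bars are means, the dotted line marks log2 5). PLK1, CXCL3 and LGR5 step down from 0% to 2%, EGR3 and DHRS2 step up, LGALS1 with 0% is within 0.5 of butyrate, and TRIB3 is low on the butyrate array alone.

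Many of the called genes were near the butyrate level with 0% fluid already. The 0% fluid mean was within 0.5 of the butyrate array, or beyond it, for 448 of the 1258 higher and 387 of the 1253 lower genes. The 2% mean was so for 903 and 839. The same count was not made for uncalled genes. The median distance left to the butyrate value was 0.70 with 0% and 0.28 with 2% for the higher genes, and 0.79 and 0.28 for the lower ones. LGALS1 was the largest of these, at 7.06 in medium, 7.16 with NaCl and 12.50 with butyrate, and at 12.32, 12.33 and 12.21 with 0% and 12.41, 12.18 and 12.23 with 2%, groups that overlapped (change -0.012 ± 0.075 (SE; adjusted p = 0.91)). GSTA4, a glutathione transferase, was at 3.33 in medium, 7.45 with butyrate and 7.34 ± 0.40 (SD, n = 3) with 0% fluid. A distance of this kind sets the butyrate array against arrays of a whole fluid, and the part of the other fluid contents was not tested here.

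Only 14 of the 2511 called genes moved the other way in the fluids. Beside CHAC1 and SESN2, the third gene lower with butyrate was DTL, a replication-linked ubiquitin ligase adaptor, at 9.91 in medium, 7.71 with NaCl and 8.90 with butyrate, which rose by 0.29 ± 0.065 (SE; adjusted p = 0.0125), though not without any 1 of 3 arrays (adjusted p = 0.0557 to 0.067). The 11 higher genes were led by CEACAM6, an adhesion molecule of colon tumours, under 5 in both controls and at 7.72 with butyrate, and PNMA2, at 3.04 and 7.41. With 0% fluid these read 7.996, 7.62 and 7.59 and 7.62, 7.26 and 7.24, close to the butyrate value, and with 2% 7.64, 6.99 and 7.19 and 6.69, 6.72 and 6.68, falls of 0.46 ± 0.12 (SE; adjusted p = 0.0236) and 0.67 ± 0.088 (SE; adjusted p = 0.00165). The arrays of CEACAM6 overlapped, and without 1 of 5 single arrays its adjusted p was 0.0516 to 0.0905. The others were TMEM139, TNNT1, SERPINB5, CYP1A1, CKB, CAPG, KLK7, SCRN2 and CYP2S1, and for TMEM139, SERPINB5, CKB and CAPG the call was likewise lost without single arrays (adjusted p = 0.0504 to 0.177). CYP1A1 read 8.90, 9.004 and 9.64 with 0% and 8.02, 8.03 and 8.36 with 2%, a fall of 1.04 ± 0.19 (SE; adjusted p = 0.00619), and TNNT1, a troponin of slow muscle fibres, fell by 0.45 ± 0.085 (SE; adjusted p = 0.00645) from a 0% level above that with butyrate.

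The 2% fluid mean lay between the 0% mean and the butyrate array for 907 of the higher (72.1%) and 879 of the lower genes (70.2%). These genes were chosen for their values on the same butyrate array, so fluid means that fall short of it are partly set by the rule. The share over all genes compared was not counted. For 34 genes the butyrate array lay above all 14 others by 1 or more and for 78 below them all, a count that describes a single array and has no replicate check.

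**Figure D5:**
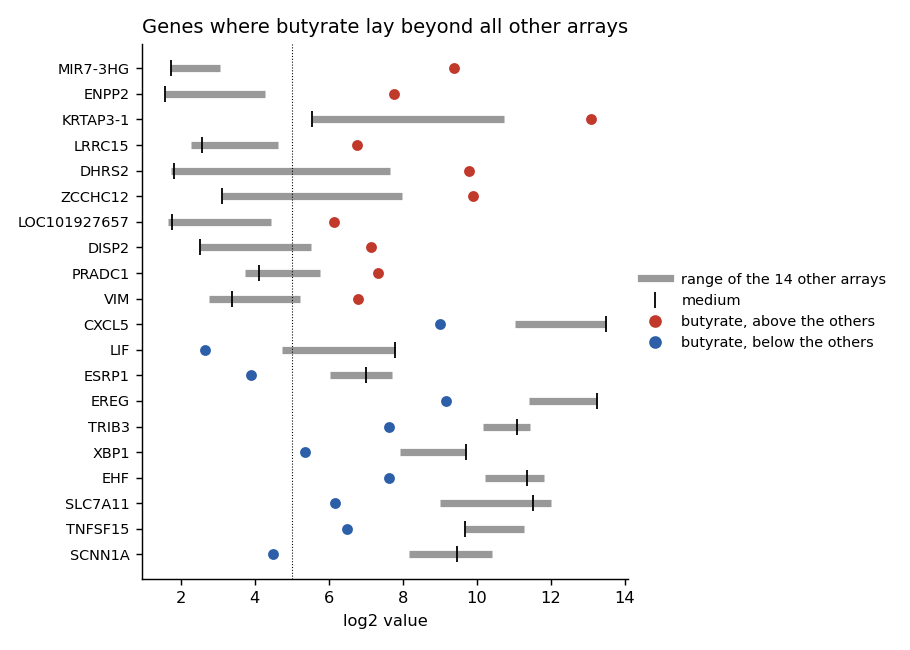
The 10 genes in which the butyrate array (red points) lay farthest above, and the 10 in which it lay farthest below (blue points), the range of the 14 other arrays (grey bars), on the log2 scale; black ticks mark medium and the dotted line log2 5. MIR7-3HG has the widest gap, at 9.38 with butyrate against at most 3.05 elsewhere, and SCNN1A lies lowest against its range, at 4.50 against 8.15 or more.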

How the data were processed

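RNA of 15 Caco-2 treatments was read on 1 Affymetrix array each. The authors deposited 1 table of 54675 probe sets, made with GCRMA (background correction, normalization and summary) per the submitters' processing notes, which give no version; that the deposited values (0.173 to 14.46) are log2 was inferred from them. The chip description used was not given in the sources used here. Probe sets were named through the platform's annotation, 1 per gene (10523 of 19775 genes had several). Nothing was normalized again.

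Butyrate and medium were compared without a test. For the fluids of vessels 2 to 4, limma 3.58.1 (R 4.3.3) was run on 9 arrays, with concentration and vessel as factors (4 residual degrees of freedom), for genes with log2 5 or more on at least 3 arrays. P-values are two-sided and Benjamini-Hochberg adjusted. In simulated data of 8719 genes, 100 were changed by log2 1 and 100 by 0.5, and 85% and 60% of these were recovered. A larger share of genes passed in the fluids (16.8% rose and 19.9% fell), so these rates do not give the sensitivity of the fit there. After the concentration means were taken out, 9 pairs of arrays of 1 vessel correlated at -0.301 to 0.323, so vessel numbers did not pair them. The number of arrays limits the precision.

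Named genes are the 12 largest differences a side at 5 or more on both arrays, the 8 largest bounded ones, up to 4 per list (42 lists, 507 of 558 entries matched, the rest not analysed here), 8 that moved the other way and some in any case; other genes were named after their values were seen. Members and lists were chosen with earlier results of these data known. Promoters are RefSeq's (6800 of the 8057 genes had one). Alternatives were other filters, thresholds, scalings, controls, probe set rules and models, and leaving out each array.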

Additional observations from a re-analysis of the deposited data

Results flagged for a closer look

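The step from 0% to 2% polydextrose in vessel 1, the ascending colon compartment, was set against that in vessels 2 to 4 by an interaction term (limma over 12 arrays). Called genes were listed where this term had an adjusted p under 0.05. The step in vessel 1 also had to have the sign opposite to that in each of vessels 2 to 4. No size was asked of it, and it was small in some genes, such as CA2 (-0.058), JAG1 (0.086) and TGFA (0.099). It was larger in others, such as CXCL2 (1.30) and CXCL3 (1.53). The share of all genes that meet both conditions was not counted, so neither can be read as particular to butyrate genes. Vessel 1 had 1 array per concentration, so the spread in this test came from vessels 2 to 4 alone, vessel 1 is assumed to vary like them, and its own value has no replicate. The genes named here that met both conditions are given with the difference between both steps (vessel 1 minus vessels 2 to 4, log2).

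Most of them were lower with butyrate. Among the chemokines this difference was 1.81 for CXCL1, 2.78 for CXCL2, 3.79 for CXCL3 and 1.64 for CXCL5. It was 4.53 for the cytokine IL33 (with a step of 0.46 in vessel 1) and 2.95 for the receptor IL20RA. Among growth factor genes it was 2.73 for BTC, 1.43 for EREG and 0.84 for TGFA, and it was 0.69 for the Notch ligand JAG1. PTGS2 had 4.10, with a step of 1.67 in vessel 1. For the rest it was 1.87 for SCNN1A, 1.504 for XBP1, 1.66 for DNAJB9, 1.31 for EHF, 1.503 for ESRP1, 2.02 for OAS1, 0.88 for CDKN1B and -1.08 for DTL.

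Among genes higher with butyrate the difference was -3.35 for KRTAP3-1, -2.86 for CCN2, -1.36 for CCN1, -1.16 for DNAJB1 and -0.72 for CA2. It was above 0 for genes that had fallen in vessels 2 to 4, with 1.13 for CYP2S1, 1.01 for TMEM139 and 0.82 for TNNT1.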

How the results depend on the processing

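The number of genes higher and lower with butyrate was 748 and 804 with log2 8 asked of the brighter array, 2079 and 2099 from a 1.5-fold difference, 426 and 330 from a log2 difference of 2, and 809 and 834 with a gene's probe sets averaged; no filter, quantile normalization, centring, a floor at 5, NaCl or the mean of both controls kept both counts within 1.5 times. With NaCl in place of medium the sign of the butyrate difference turned for BARD1 (0.41), CCNE2 (0.14), CKB (-0.20), CXCL8 (2.07), CYP1A1 (-0.91), DTL (1.197), EXO1 (1.40) and SESN2 (0.18), and with the mean of both controls for CXCL8 (0.37) and DTL (0.095). Of the 762 higher genes that rose and 878 lower genes that fell in the fluids, the contrast of 1% with 0% gave 398 and 378, and averaged probe sets gave 504 among the higher genes. The 14 genes of opposite direction were 2 with vessel 1 added and 5 with the contrast of 1% with 0%. Without the vessel as a replicate block the counts were 763, 880 and 13. Leaving out single arrays gave 564 to 625, 685 to 766 and 10 to 15. A filter on the mean of the 9 arrays, added after the data were seen, gave 759, 855 and 15. The cause of these shifts was not tested. List medians that changed sign were those of histone deacetylases, keratins, glucose use, oxidative phosphorylation and the epithelial markers with centring, and of prostaglandin, fatty acid synthesis, aryl hydrocarbon receptor, tight junction and antigen presentation genes against NaCl.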

Other observations

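Some genes set the butyrate array apart from every other array, the fluids included; they were picked after their values were seen. MIR7-3HG, the host transcript of a miR-7 gene that is known from endocrine cells, read 9.38 with butyrate and 1.71 to 3.05 elsewhere, the 2% fluids included. ENPP2, the secreted enzyme autotaxin, read 7.76 against 1.56 to 4.26, LRRC15, a membrane protein of activated fibroblasts, 6.77 against 2.29 to 4.62, and VIM, the intermediate filament of mesenchymal cells, 6.80 against 2.75 to 5.23. GAST, the hormone gastrin, read 6.80 against 3.25 to 5.41. In the other direction SCNN1A read 4.50 against 8.15 to 10.40, TNFSF15, a cytokine of the TNF family, 6.50 against 9.67 to 11.26, and TRIB3 7.63 against 10.17 to 11.42. LIF, a cytokine that keeps stem cells undifferentiated, read 2.67 against 4.73 to 7.80, and ESRP1, the splicing factor of epithelial cells, 3.89 against 6.02 to 7.71. The epithelial marker CDH1, however, stood at 12.70 in medium and 12.77 with butyrate, while CDH17 was lower (-1.14). The 6 fibroblast markers other than COL1A1 stayed at 1.33 to 2.74 on all arrays. With 1 butyrate array, a feature of that array and one of the treatment cannot be told apart.

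Where a called gene had other probe sets at 6 or more on the brighter array (406 of the higher and 446 of the lower genes), they differed in the same direction in 401 and 440. In 1 gene on each side another probe set passed the threshold in the opposite direction.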
